A study of Rattus norvegicus with 12 samples.

Results

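The genes followed in rat liver belong to antioxidant defence and glutathione metabolism: Gclc, Gclm, Gsr, Gpx1, Sod1, Sod2, Cat, Nqo1, Hmox1 and Txnrd1. The members are the probe sets to which the platform annotation gives 1 of these symbols alone, which were 23 of the 8799 probe sets on the array and covered 10 of the 10 genes. Gclm, Gsr, Gpx1, Sod1 and Cat had 3 probe sets each, Nqo1, Hmox1 and Txnrd1 had 2 each, and Gclc and Sod2 had 1 each. All 23 passed into the tests, since no filter on low values was used. Liver RNA was measured on 12 single-colour Affymetrix arrays, 3 for each of 4 diets: 70% corn oil, 5% corn oil, 70% olive oil and 5% olive oil. All groups were male Sprague-Dawley rats of 150 g at the start that were fed through a gastric cannula (total enteral nutrition) and overfed by 17% of calories for 21 days. All 4 groups were overfed, the 5% fat groups too. Because the diets were isocaloric and traded fat for carbohydrate, a difference in fat level is also a difference in carbohydrate. Each array held a pool of liver RNA whose number of animals the labels do not state, so that p-values reflect how pools vary, which may be technical.

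The cell removes superoxide with superoxide dismutases (Sod1 in the cytosol, Sod2 in mitochondria), which turn it into hydrogen peroxide. Catalase in peroxisomes and glutathione peroxidases then break the peroxide down, and the glutathione used up by the peroxidases is restored by glutathione reductase (Gsr) at the expense of NADPH. Glutathione itself is made in a rate-limiting step by glutamate-cysteine ligase, whose catalytic subunit is Gclc and whose modifier subunit is Gclm, and the liver is a main source of it for the body. The transcription factor NRF2 drives many of these genes, among them Nqo1, Hmox1, Txnrd1, Gclc and Gclm, through a DNA element called the antioxidant response element.

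Every value below is a log2 difference from the median of that probe set over the 12 arrays, as the authors deposited it, so levels of different genes cannot be set against each other and no absolute level is known. Differences between diets carry the standard error of the limma model (SE, 3 arrays per diet), and a difference was called when its Benjamini-Hochberg adjusted p over 8740 tested probe sets was under 0.05. The arrays did not differ in the diets alone. The 3'/5' index, the log2 difference between control probe sets at the 3' and the 5' end of the actin and GAPDH transcripts, ran from 0.16 to 1.03 with 70% corn oil and from 0.97 to 1.502 with 5% corn oil. It ran from -0.41 to -0.23 with 70% olive oil and from -0.43 to -0.31 with 5% olive oil. The 6 corn oil arrays therefore lay above the 6 olive oil arrays without overlap, and the one nearest to the olive oil arrays was pool 2 of 70% corn oil. Pool 3 of 70% corn oil was the lowest of the 12 arrays for 9 of the 23 member probe sets, with a median of -0.62 over the members. Of 10 listed hepatocyte markers 9 genes were measured, but in centred values their presence cannot be checked. Their mean level over 25 probe sets ran from -0.072 to -0.022 with 70% corn oil, from -0.14 to -0.12 with 5% corn oil, from 0.031 to 0.10 with 70% olive oil and from -0.011 to 0.12 with 5% olive oil.

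**Figure D1:**
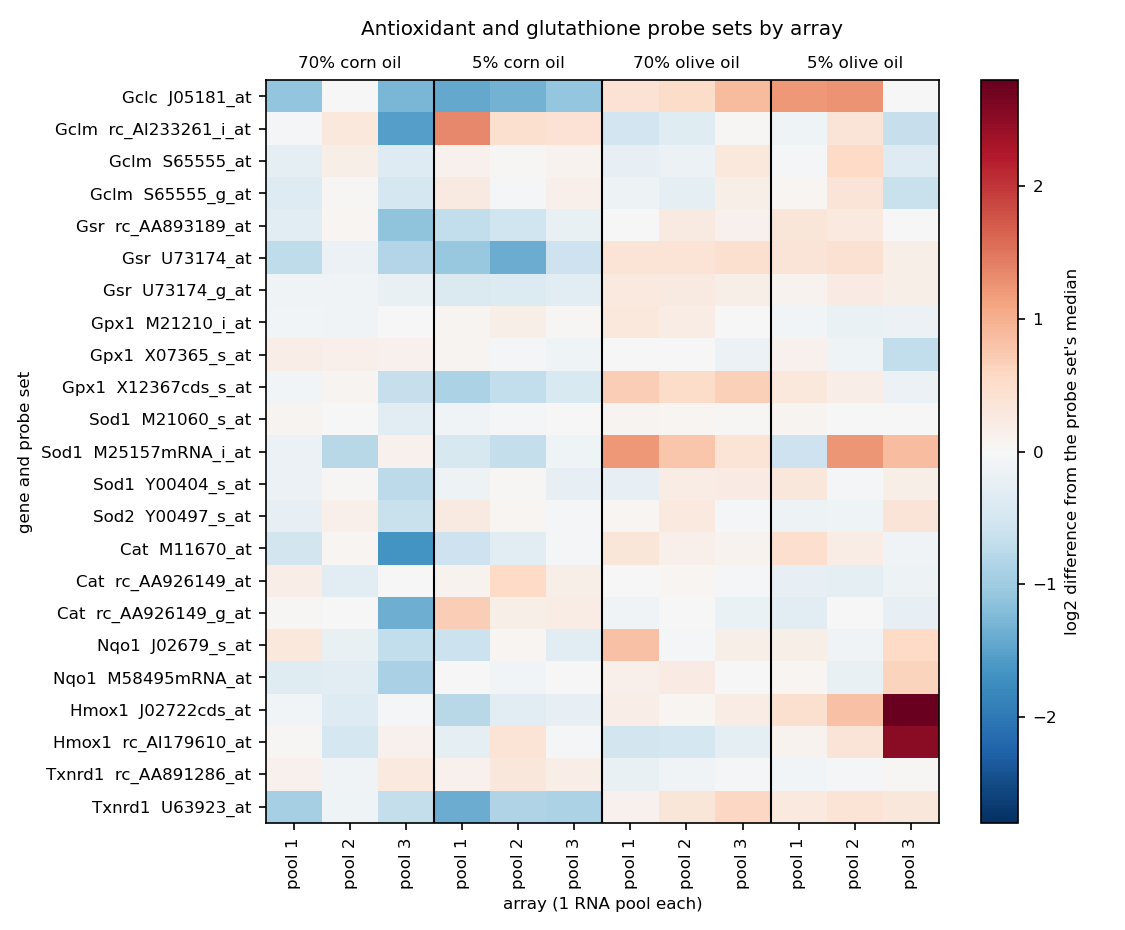
The 23 probe sets of the 10 genes (rows) in each of the 12 arrays (columns, 3 pools per diet), coloured by the log2 difference from the median of the probe set. The row of Gclc is blue in the corn oil arrays and red in the olive oil arrays apart from pool 2 of 70% corn oil and pool 3 of 5% olive oil near 0, and both Hmox1 rows are darkest in pool 3 of 5% olive oil.

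RefSeq sequence around the annotated gene starts (GRCr8; 250 bases before and 50 after the start) was available for 8 of the 10 genes in 9 windows, Txnrd1 having 2. The core of the antioxidant response element, TGACNNNGC on either strand, occurred in 3 of these windows, those of Gclm, Sod2 and one of Txnrd1, and in 12.1% of all 33469 windows of that length. They are printed because this element is the one through which NRF2 acts, with the match in capitals and 16 bases on each side.
Gclm: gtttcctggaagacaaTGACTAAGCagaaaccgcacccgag
Sod2: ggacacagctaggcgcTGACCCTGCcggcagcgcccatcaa
Txnrd1: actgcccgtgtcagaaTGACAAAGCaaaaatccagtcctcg
The Gclm stretch is chr2:213031947-213031987 on the minus strand, and that of Sod2 is chr1:50050179-50050219 on the plus strand. The Txnrd1 stretch is chr7:22755958-22755998 on the plus strand. Each lies in the window of its gene on the opposite strand to the gene, with offsets from the gene start of -172, -35 and -78. The windows of Gclc, Gpx1, Sod1, Cat and Nqo1 hold no such letters. A match is a string of letters in these windows, and binding was not measured.

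The first question is whether 70% fat differed from 5% fat. With corn oil, 0 of 23 member probe sets passed the limma test, against 2.11% of all probe sets, while 8 of 23 had an unadjusted p under 0.05 (1642 of 8740 overall). The median difference of the members was -0.11, against -0.0075 over all probe sets, with 10 members above 0 and 13 below. Gclm showed the widest gap with 1 of its probe sets (rc_AI233261_i_at), at -0.036, 0.30 and -1.53 in the 3 pools of 70% corn oil and 1.35, 0.44 and 0.40 in the 3 pools of 5% corn oil. The groups did not overlap, but the difference of -1.15 ± 0.42 had an adjusted p of 0.167 (95% interval -2.07 to -0.23), and its other 2 probe sets were at -0.23 and -0.40.

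Catalase, the peroxisomal enzyme that splits hydrogen peroxide, was at 0.022, 0.013 and -1.37 with 70% corn oil and at 0.70, 0.17 and 0.20 with 5% corn oil by probe set rc_AA926149_g_at. The difference was -0.80 ± 0.30 (adjusted p = 0.170), and pool 3 of 70% corn oil stood far below the other arrays. For Nqo1, the quinone reductase (probe set M58495mRNA_at), the 70% corn oil pools were at -0.34, -0.31 and -0.90 and the 5% corn oil pools at 0.014, -0.079 and -0.0060. These groups did not overlap either, and the difference of -0.49 ± 0.19 had an adjusted p of 0.196. Gsr, by probe set U73174_g_at, differed by 0.23 ± 0.08 (adjusted p = 0.126) and Txnrd1, the cytosolic thioredoxin reductase, by 0.46 ± 0.20 with U63923_at (adjusted p = 0.236), in arrays whose index averaged 0.71 ± 0.48 with 70% corn oil and 1.28 ± 0.28 with 5% corn oil (SD, n = 3). The part of the index in these differences was tested only as a covariate. With it 0 of 23 members were called and 6 had an unadjusted p under 0.05 (40 and 1147 of 8740 overall).

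With olive oil, where the index averaged -0.35 ± 0.10 at 70% fat and -0.36 ± 0.06 at 5% fat (SD, n = 3), again 0 of 23 members passed the limma test, against 0.435% of all probe sets. An unadjusted p under 0.05 was found for 4 of 23 (739 of 8740 overall), which were both probe sets of Hmox1 and a pair of those of Gpx1. The members' median was 0.021, against 0.028 over all probe sets. Gpx1, the cytosolic glutathione peroxidase, stood at 0.69, 0.52 and 0.67 with 70% olive oil and at 0.29, 0.18 and -0.16 with 5% olive oil by probe set X12367cds_s_at, without overlap. Its difference was 0.52 ± 0.18 (adjusted p = 0.396, 95% interval 0.13 to 0.92). A second Gpx1 probe set, M21210_i_at, differed by 0.32 ± 0.09 (adjusted p = 0.231). Gclc, the catalytic subunit of glutathione synthesis, was at 0.41, 0.51 and 0.88 with 70% olive oil and at 1.22, 1.26 and 0.0052 with 5% olive oil, so the groups overlapped, and its difference was -0.23 ± 0.35 (adjusted p = 0.945, 95% interval -0.99 to 0.54).

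**Figure D2:**
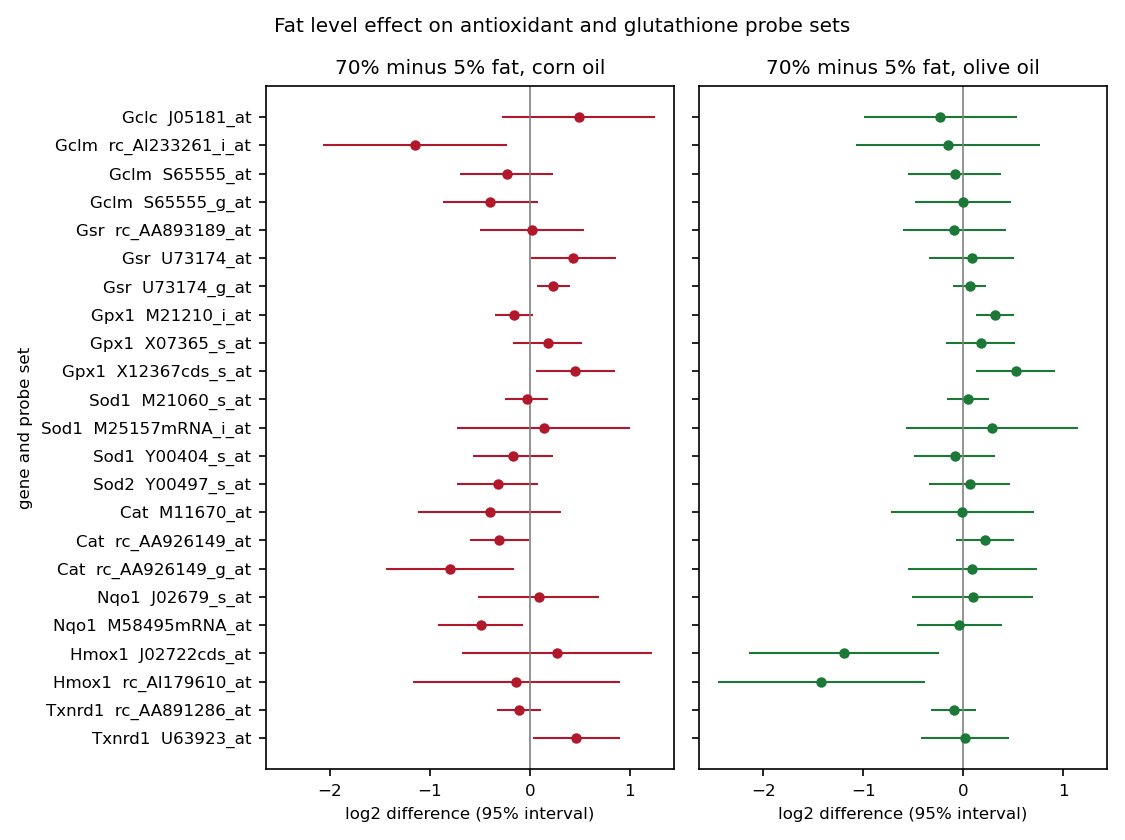
Difference of 70% minus 5% fat for each of the 23 probe sets with corn oil (left) and olive oil (right), as log2 with 95% intervals of the limma model (3 arrays per diet). No member passed the adjusted threshold in either panel, and the widest differences are those of Gclm at -1.15 with corn oil and Hmox1 at -1.19 and -1.42 with olive oil.

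Averaged over both oils, 70% minus 5% fat gave 0 of 23 members by limma, against 2.28% of all probe sets, with 4 of 23 at an unadjusted p under 0.05 (1267 of 8740 overall). The nearest to the threshold was Gpx1 by X12367cds_s_at, at 0.49 ± 0.13 (adjusted p = 0.0811, 1.40-fold). It was higher at 70% fat with each oil, by 0.45 with corn oil and by 0.52 with olive oil, whereas its probe sets M21210_i_at and X07365_s_at averaged 0.081 ± 0.062 and 0.18 ± 0.11. Without pool 3 of 70% corn oil it was called, at 0.60 (adjusted p = 0.0108), and its highest adjusted p among the alternatives was 0.238, with the index as a covariate. With that covariate 1.41% of all probe sets and 0 of 23 members were called. An unadjusted p under 0.05 was then found for 5 members (1307 of 8740 overall). Of the superoxide dismutases, Sod2 was at -0.13 ± 0.13 (95% interval -0.41 to 0.16) and the Sod1 probe set with the smallest error, M21060_s_at, at 0.0090 ± 0.069 (95% interval -0.14 to 0.16).

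The fat effect with corn oil minus that with olive oil (the interaction) was called for 0 of 23 members and 0% of all probe sets by limma, with 3 of 23 and 1028 of 8740 at an unadjusted p under 0.05. The members' median was -0.081, against -0.032 over all probe sets. Hmox1 by J02722cds_at had the largest value, 1.46 ± 0.62 (adjusted p = 0.394). Without pool 3 of 5% olive oil this value was 0.75 (adjusted p = 0.362), and that of Hmox1 by rc_AI179610_at went from 1.29 to 0.52. Catalase by rc_AA926149_at was at -0.52 ± 0.19 (adjusted p = 0.353) and Gpx1 by M21210_i_at at -0.47 ± 0.12 (adjusted p = 0.288).

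The second question is whether corn oil differed from olive oil. Averaged over both fat levels, 10 member probe sets of 8 genes were lower and 1 was higher with corn oil, 11 of 23 in all, against 24.3% of all probe sets (11.1% lower and 13.1% higher). The members' median was -0.33, against 0.034 over all probe sets, with 17 of 23 below 0. The index differed between the oils in the same arrays, so that oil and index cannot be told apart by these arrays, and what follows holds for both together. Some markers of other cell types also differed between the oils. The mean level of the stellate cell and fibroblast markers (9 of 10 listed genes) ran from 0.063 to 0.18 with 70% corn oil and 0.059 to 0.34 with 5% corn oil, against -0.063 to -0.021 with 70% olive oil and -0.25 to -0.014 with 5% olive oil. The endothelial markers ran from -0.039 to 0.061 and 0.065 to 0.23 with 70% and 5% corn oil, against -0.33 to -0.18 and -0.21 to 0.11 with 70% and 5% olive oil. The cholangiocyte markers ran from -0.0082 to 0.068 and -0.017 to 0.24 with 70% and 5% corn oil, against -0.14 to -0.059 and -0.17 to -0.073 with 70% and 5% olive oil. In the mean oil difference 7 of 20 stellate cell and fibroblast probe sets were called, against 24.3% of all probe sets. So were 3 of 5 for endothelial cells (4 of 9 genes) and 3 of 5 for cholangiocytes (4 of 6 genes). For Kupffer cells and macrophages 4 of 14 were called, for lymphocytes 2 of 9 (7 of 9 genes) and for hepatocytes 7 of 25. For erythroid cells 0 of 6 were called, and for neutrophils 0 of 2. The part of these cell types in the members' values was not tested.

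Gclc had the largest difference. It was at -1.09, -0.0052 and -1.29 in the pools of 70% corn oil and -1.43, -1.33 and -1.09 in those of 5% corn oil, against 0.41, 0.51 and 0.88 with 70% olive oil and 1.22, 1.26 and 0.0052 with 5% olive oil. All 6 corn oil arrays lay below all 6 olive oil arrays, though pool 2 of 70% corn oil and pool 3 of 5% olive oil almost touched. The mean oil difference was -1.75 ± 0.25, or 3.37-fold lower with corn oil (adjusted p = 0.000329). Within 70% fat it was -1.40 ± 0.35 (2.63-fold, adjusted p = 0.0309) and within 5% fat -2.11 ± 0.35 (4.32-fold, adjusted p = 0.00149). The call within 70% fat was lost without either pool 1 or pool 3 of 70% corn oil or any pool of 70% olive oil, with adjusted p up to 0.110.

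Gclm, the partner of Gclc in the same enzyme, gave no call in the oil comparisons, with mean oil differences of 0.36, -0.037 and -0.0033 for its 3 probe sets. The most precise of these, S65555_at, had a 95% interval of -0.37 to 0.29. By rc_AI233261_i_at the oil difference was 0.86 ± 0.42 at 5% fat (adjusted p = 0.184), without overlap, and -0.14 ± 0.42 at 70% fat. At 5% fat S65555_at and S65555_g_at were at 0.038 and 0.19, with overlap. A test of the difference between the subunits was not run.

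Gsr, which returns oxidised glutathione to its reduced form, was lower with corn oil in all 3 of its probe sets. By U73174_at it was at -0.72, -0.17 and -0.83 with 70% corn oil and -1.06, -1.39 and -0.59 with 5% corn oil, against 0.38, 0.39 and 0.44 with 70% olive oil and 0.36, 0.42 and 0.17 with 5% olive oil. No corn oil array reached any olive oil array, and the mean oil difference was -1.15 ± 0.14, or 2.22-fold lower (adjusted p = 0.000117). The other 2 probe sets fell by 0.64 and 0.44.

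Gpx1 fell with corn oil in 1 of 3 probe sets. By X12367cds_s_at it was at -0.070, 0.070 and -0.65 with 70% corn oil and -0.88, -0.69 and -0.43 with 5% corn oil, against 0.69, 0.52 and 0.67 with 70% olive oil and 0.29, 0.18 and -0.16 with 5% olive oil. Within each fat level the corn oil arrays were all lower, while over both levels the oils overlapped through pool 3 of 5% olive oil, and the mean oil difference was -0.81 ± 0.13 (1.75-fold, adjusted p = 0.000720). The other Gpx1 probe sets were at 0.0044 ± 0.062 and 0.20 ± 0.11.

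Txnrd1, which keeps thioredoxin reduced, went both ways. Probe set U63923_at was at -0.93, -0.11 and -0.67 with 70% corn oil and -1.40, -0.84 and -0.88 with 5% corn oil, against 0.11, 0.35 and 0.57 with 70% olive oil and 0.27, 0.38 and 0.33 with 5% olive oil, with no overlap. Its mean oil difference was -1.14 ± 0.14 (2.20-fold, adjusted p = 0.000160). Probe set rc_AA891286_at was higher with corn oil, by 0.22 ± 0.07 (1.17-fold, adjusted p = 0.0408), and over the 12 arrays the pair had a Pearson correlation of -0.73, given as a description.

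Among the enzymes that handle superoxide and peroxide, Sod1 fell in 1 of 3 probe sets (M25157mRNA_i_at). It was at -0.16, -0.77 and 0.11 with 70% corn oil and -0.44, -0.68 and -0.11 with 5% corn oil, against 1.21, 0.77 and 0.39 with 70% olive oil and -0.59, 1.23 and 0.87 with 5% olive oil. Pool 1 of 5% olive oil lay among the corn oil arrays, and the mean oil difference was -0.99 ± 0.28 (adjusted p = 0.0220). Its other probe sets were at -0.11 and -0.31. Catalase fell in 1 of 3 (M11670_at), which was at -0.50, 0.049 and -1.68 with 70% corn oil and -0.59, -0.28 and -0.049 with 5% corn oil, against 0.34, 0.14 and 0.11 with 70% olive oil and 0.48, 0.22 and -0.089 with 5% olive oil. Its oils overlapped, and the mean difference was -0.71 ± 0.23 (adjusted p = 0.0443). Its remaining probe sets were at 0.23 and 0.093. Sod2 was at -0.13 ± 0.13 (95% interval -0.42 to 0.15). Of the NRF2 targets, Nqo1 fell by M58495mRNA_at (-0.41 ± 0.14, adjusted p = 0.0457) and was at -0.50 ± 0.20 by J02679_s_at (adjusted p = 0.0873). The calls of Sod1, catalase, Nqo1 and the Txnrd1 probe set that was higher were lost on leaving out singly 4, 8, 9 and 9 of the 12 arrays, in that order, while those of Gclc, Gsr, Gpx1 and U63923_at of Txnrd1 held without any single array.

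Taken by fat level, the members called were fewer. At 70% fat 5 of 23 were lower with corn oil and none was higher, against 8.51% of all probe sets (4.55% lower and 3.96% higher): Gclc, the U73174 pair of Gsr at -0.98 and -0.36, Gpx1 by X12367cds_s_at at -0.84 and Txnrd1 by U63923_at at -0.92. This count was 8 without pool 2 of 70% corn oil and 3 without pool 1 or pool 3 of 70% corn oil. It was 2 without any 1 pool of 70% olive oil. Over all 8740 probe sets, 744 were called with every array and 1162 without pool 2 of 70% corn oil. Without pool 1 or pool 3 of 70% corn oil there were 350 or 412 calls. Without pool 1, 2 or 3 of 70% olive oil there were 322, 373 or 311. At 5% fat 6 were lower and 1 was higher with corn oil, against 19.5% of all probe sets (9.36% lower and 10.1% higher). The 6 were Gclc, the U73174 pair of Gsr at -1.33 and -0.53, Gpx1 at -0.77, Txnrd1 at -1.36 and Hmox1 at -1.78, and the higher one was catalase by rc_AA926149_at at 0.49 ± 0.13 (adjusted p = 0.0244). The catalase call was lost without pool 2 of 5% corn oil, or pool 1 or pool 2 of 5% olive oil (adjusted p up to 0.0940). The oil difference was larger at 5% fat for Gclc, Gsr and Txnrd1 and smaller for Gpx1, and none of these interactions passed the test. Between corn and olive oil the index also lay further apart at 5% fat (means 1.28 and -0.36) than at 70% fat (0.71 and -0.35). With it as a covariate the interactions were 0.074 for Gclc, -0.10 for Gsr by U73174_at and -0.029 for Txnrd1 by U63923_at. Without it they were 0.72, 0.35 and 0.44. For Gsr by U73174_g_at and Gpx1 by X12367cds_s_at they were 0.11 and -0.38 with it, and 0.17 and -0.072 without it.

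Of the 10 probe sets that were lower with corn oil, 7 had their highest corn oil value in pool 2 of 70% corn oil, the corn oil array with the lowest index, as did 644 of all 973 probe sets that were lower with corn oil (66.2%). When the index entered the model as a covariate, 0 of 23 members were called in the mean oil difference, and 0% of all probe sets. The same held at 70% fat (0% of all probe sets) and at 5% fat (0% of all probe sets). An unadjusted p under 0.05 was then found for 0 of 23 members in the mean oil difference, and for 579 of 8740 probe sets overall. The Gclc difference was -0.26 ± 0.63 in that model (95% interval -1.65 to 1.12), that of Gsr by U73174_at -0.098 ± 0.29 and that of Txnrd1 by U63923_at -0.038 ± 0.29. Gpx1 by X12367cds_s_at was at -0.082 ± 0.34 there (-0.81 without the covariate). The standard errors are larger than without the covariate, and the index and the oil move together. Other called differences kept their direction in that model: Gsr by U73174_g_at was at -0.32 ± 0.17 (-0.44 without the covariate), Hmox1 by J02722cds_at at -0.82 ± 0.98 (-1.05 without it) and Sod1 by M25157mRNA_i_at at -1.64 ± 0.86 (-0.99 without it). None of them was called there. The signs of Gsr by rc_AA893189_at (0.64), catalase by M11670_at (0.90), Nqo1 by M58495mRNA_at (0.076) and Txnrd1 by rc_AA891286_at (-0.092) were turned.

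**Figure D3:**
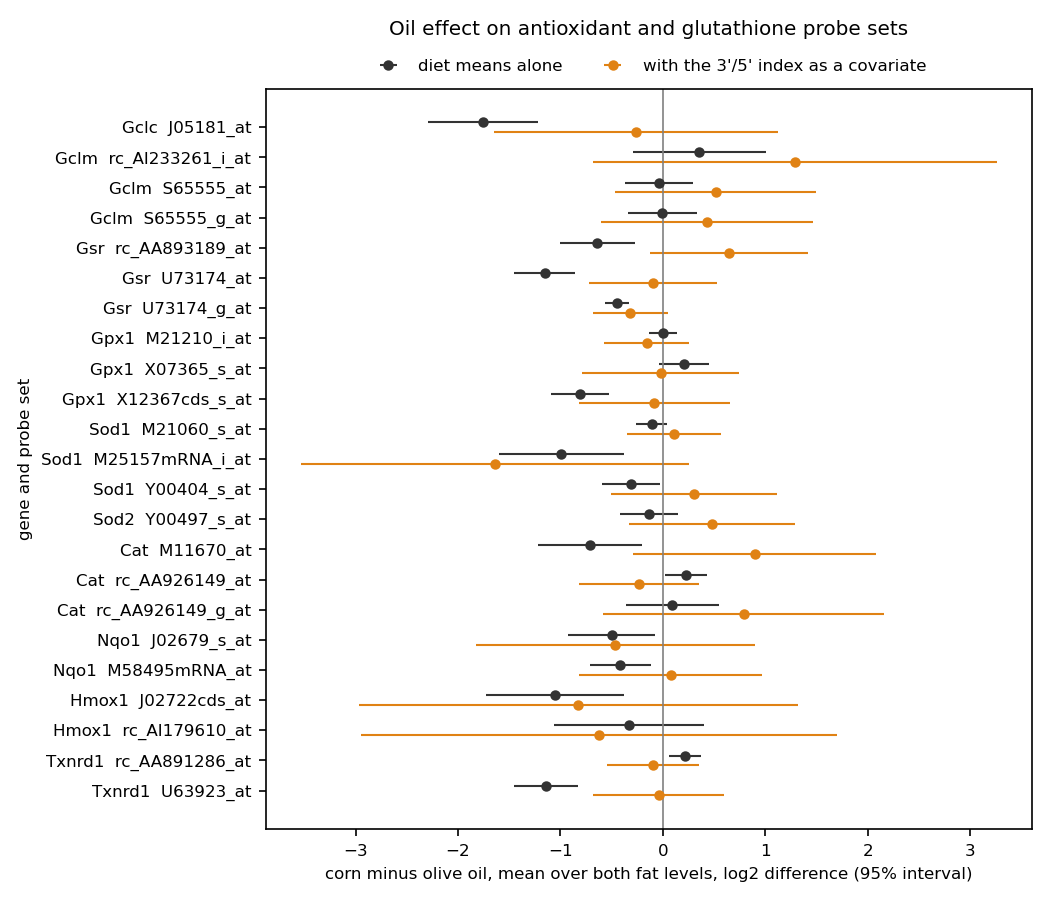
Corn minus olive oil, averaged over both fat levels, for each of the 23 probe sets as log2 with 95% intervals, from the diet means alone (dark) and with the index as a covariate (orange). Gclc moves from -1.75 to -0.26 and every interval widens with the covariate.

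**Figure D4:**
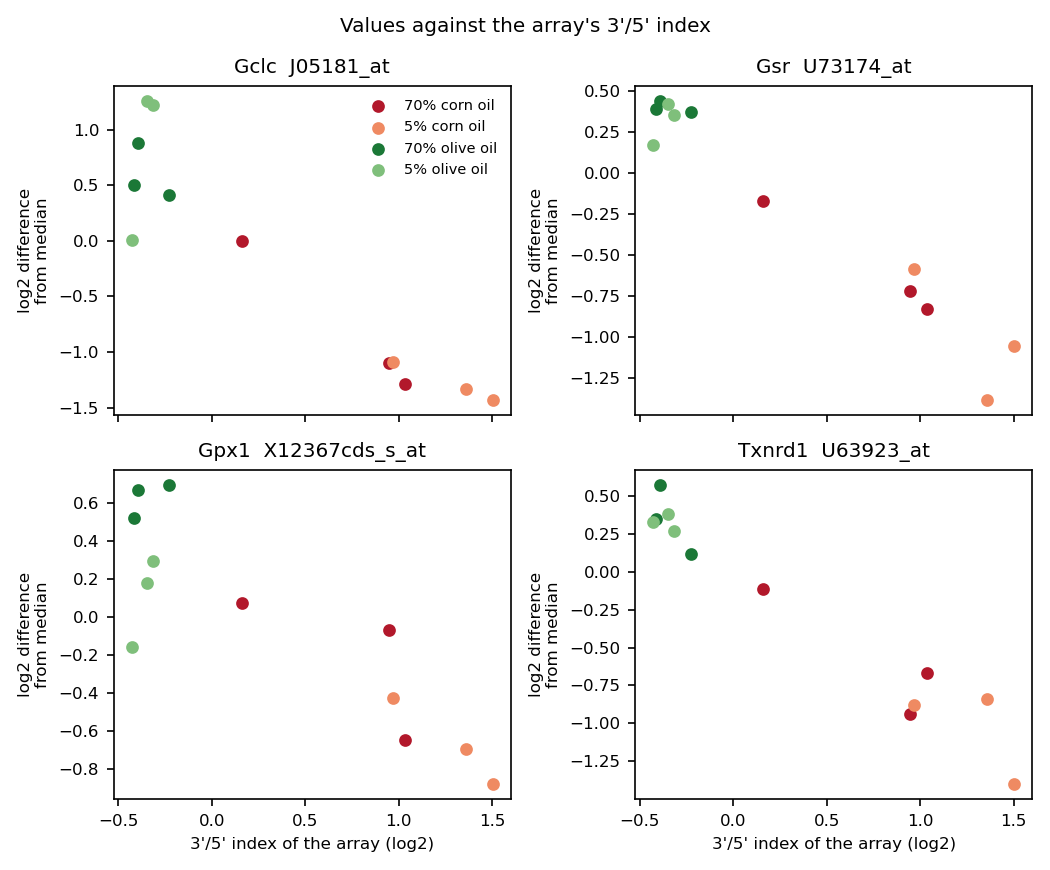
Values of 4 probe sets that were lower with corn oil against the 3'/5' index of the array, both log2, with 1 point per array coloured by diet. The 6 corn oil arrays lie at 0.16 to 1.502 on the index and the 6 olive oil arrays at -0.43 to -0.23, and the corn oil array at 0.16 has the highest corn oil value in each panel.

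Probe sets of 1 gene did not always tell the same story. Pearson correlations over the 12 arrays, as a description, were 0.75 to 0.95 within Gsr, 0.67 to 0.91 within Gclm, 0.87 within Hmox1 and 0.60 within Nqo1. They were -0.055 to 0.26 within Gpx1, -0.016 to 0.71 within Sod1 and -0.33 to 0.48 within catalase. The Hmox1 value includes pool 3 of 5% olive oil, at 2.78 and 2.53, and the correlation without that pool was not computed. Between the oils at 70% fat the Hmox1 probe sets differed in sign, at -0.32 and 0.32, and neither was called. Where the probe sets of a gene disagree, the gene's direction is uncertain. With 1 value per gene (the mean of its probe sets, 4736 genes), the mean oil difference called 5 of the 10 genes, Gclc, Gsr, Sod1, Nqo1 and Txnrd1, against 21.9% of all genes. The fat comparisons called 0 of 10, against 2.53% of all genes with corn oil, 0.549% with olive oil and 2.17% on average.

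By likeness over the 12 arrays, the probe sets of other genes nearest to Gclc were Ppm1b (Pearson r = 0.98) and Slco2a1 (0.98). Nearest to Gsr by U73174_at was Tmem59 (0.99), to Txnrd1 by U63923_at Cops7a (0.99) and to Gpx1 by X12367cds_s_at Decr2 (0.97). All 12 arrays share the difference in index, so these correlations describe the arrays and carry no p.

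Hmox1, which encodes the inducible heme oxygenase that degrades heme to biliverdin, iron and carbon monoxide, was set apart by 1 array. By J02722cds_at it was at -0.078, -0.36 and -0.059 with 70% corn oil and -0.78, -0.32 and -0.22 with 5% corn oil, against 0.18, 0.059 and 0.22 with 70% olive oil and 0.44, 0.81 and 2.78 with 5% olive oil. Pool 3 of 5% olive oil was 3.90-fold above the next array by this probe set and 4.45-fold by rc_AI179610_at, where it stood at 2.53. By rc_AI179610_at the remaining pools were at 0.038, -0.49 and 0.13 with 70% corn oil and -0.25, 0.37 and -0.038 with 5% corn oil, against -0.52, -0.49 and -0.25 with 70% olive oil and 0.097 and 0.37 with 5% olive oil. The other 11 arrays lay between -0.78 and 0.81 by the first probe set and between -0.52 and 0.37 by the second.

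With olive oil, both Hmox1 probe sets were lower in every 70% pool than in any 5% pool, at -1.19 ± 0.44 (adjusted p = 0.434) and -1.42 ± 0.48 (adjusted p = 0.364). Without pool 3 of 5% olive oil these differences were -0.48 and -0.66 (adjusted p = 0.492 and 0.393). At 5% fat, corn oil minus olive oil was -1.78 ± 0.44 by J02722cds_at (3.44-fold lower, adjusted p = 0.0135) and -0.97 ± 0.48 by rc_AI179610_at (adjusted p = 0.181). Without that pool they were -1.07 (adjusted p = 0.00253) and -0.21 (adjusted p = 0.563), and without pool 1 of 5% corn oil the call of the first was lost (adjusted p = 0.0558). The mean oil difference of J02722cds_at was -1.05 ± 0.31 (adjusted p = 0.0267), and -0.69 (adjusted p = 0.00154) without pool 3 of 5% olive oil. This call was lost without pool 1 of 5% corn oil and without pool 1 or pool 3 of 70% olive oil, with adjusted p up to 0.0634. By rc_AI179610_at the mean oil difference was -0.33 ± 0.34 and was not called (adjusted p = 0.531). Without pool 3 of 5% olive oil it was 0.055 (adjusted p = 0.828).

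In likeness over the 12 arrays, Hmox1 by J02722cds_at was nearest to Lepr, the leptin receptor (r = 0.90), C4bpa, a complement inhibitor (0.89), and A2m, the acute-phase protein alpha-2-macroglobulin of the rat (0.89). Each of these probe sets was also highest of the 12 arrays in pool 3 of 5% olive oil, at 0.83, 0.68 and 2.88. Correlations without that pool were not computed. Pool 3 of 5% olive oil held 6.19 for Lcn2, an acute-phase protein that binds iron carriers, 2.05 for Lbp, 1.43 for Orm1 and 2.97, 2.88, 2.84 and 1.54 for 4 probe sets of A2m, genes chosen after their values were seen. High values there were not of acute-phase genes alone: Pnpla3 and Fasn, genes of lipid metabolism, were at 2.45 and 2.40, the fatty acid binding protein Fabp5 at 1.91 and Me1 at 1.72, each below its value in the highest other array, and Pcolce was at 1.60. Among 8740 probe sets in that array, those of Hmox1 ranked 6 and 8. In bulk liver, fewer cells of a type and less RNA per cell cannot be told apart. The mean level of the Kupffer cell and macrophage markers (8 of 14 listed genes, 14 probe sets) ran from -0.19 to 0.13 with 70% corn oil, -0.23 to 0.18 with 5% corn oil, -0.27 to -0.093 with 70% olive oil and -0.034 to 0.31 with 5% olive oil. It was -0.034 in pool 3 of 5% olive oil. The neutrophil markers (2 of 6 listed genes) were highest of the 12 arrays there, at 0.66, and the erythroid markers (4 of 9) were at -0.11. Centred values do not show which defining markers are near 0, and the part of these cells in the Hmox1 values was not tested.

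**Figure D5:**
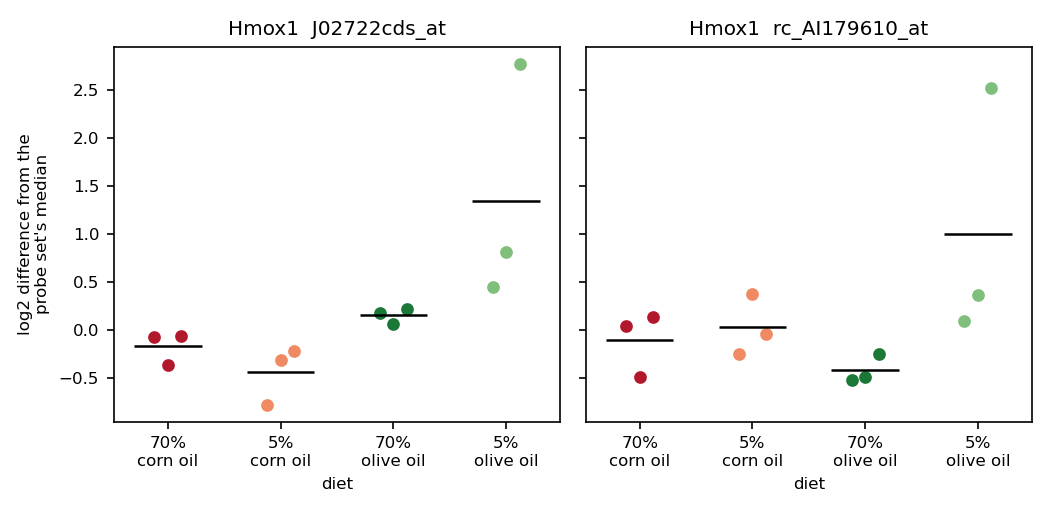
Values of both Hmox1 probe sets in the 12 arrays by diet, as log2 differences from the median of the probe set (points, 1 per pool; lines, diet means over 3 pools). Pool 3 of 5% olive oil lies at 2.78 and 2.53, and the other 11 arrays between -0.78 and 0.81 on the left and between -0.52 and 0.37 on the right.

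The rest of the pathway was described by 5 further lists. Of the NADPH supply, 15 probe sets of 8 genes were measured, and averaged over the oils 5 fell and 1 rose at 70% fat, against 2.28% of all probe sets. Malic enzyme Me1, which makes cytosolic NADPH from malate, accounted for 4 of those that fell, at -1.22 to -1.64, while the fifth Me1 probe set, rc_AI171067_at, was at -0.19 ± 0.07 (adjusted p = 0.195). By rc_AI171506_g_at Me1 was at -1.14, -0.59 and -1.98 with 70% corn oil against 0.43, 0.079 and 0.28 with 5% corn oil, and at -0.73, -0.77 and -0.079 with 70% olive oil against 1.25, 0.81 and 1.07 with 5% olive oil. The fat levels did not overlap within either oil, and the mean difference was -1.53 ± 0.20 (adjusted p = 0.00166), or -1.78 with the index as a covariate (adjusted p = 0.000919). Mthfd1, an enzyme of folate metabolism, fell by 0.57 ± 0.10 (adjusted p = 0.0114; with the index as a covariate the adjusted p was 0.0613), and Idh1, the cytosolic isocitrate dehydrogenase, rose by 0.35 ± 0.06 (adjusted p = 0.00707). A second Idh1 probe set was at -0.28 ± 0.18. The window of Me1 holds the same element, printed for comparison with the 3 members above (chr8:96540387-96540427, minus strand, GRCr8, offset -167).
Me1: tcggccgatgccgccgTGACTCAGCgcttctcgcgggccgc

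Of the enzymes that make hydrogen peroxide or superoxide (16 probe sets, 11 genes), 3 rose and none fell in the mean fat effect. All 3 were probe sets of Cyp2e1, a cytochrome P450 that releases reactive oxygen, at 0.66 to 1.12. Of all probe sets 2.28% were called in that effect. With the index as a covariate 0 of the 16 were called, and 2 of the 3 calls were also lost without at least 5 of the 12 arrays in turn. The mean oil difference called 3 higher and 5 lower with corn oil in this list, against 13.1% higher and 11.1% lower of all probe sets. Among them were Acox3, a peroxisomal oxidase, at -1.14 ± 0.12 (adjusted p = 4.74e-05), and urate oxidase Uox at -1.50 ± 0.21 in 1 of 3 probe sets, the others at -0.054 and 0.22.

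Among further NRF2 targets and regulators (39 probe sets, 23 genes), 1 rose and 1 fell in the mean fat effect. That effect called 2.28% of all probe sets. The glutathione S-transferase Gstt2 fell by 0.46 ± 0.08 by rc_AI138143_at (adjusted p = 0.00752), and its other probe set was at -0.16 ± 0.09. Gsta4, a transferase that conjugates lipid aldehydes, rose by 0.41 ± 0.09 by X62660mRNA_at (adjusted p = 0.0404), and was at 0.26 ± 0.10 by its other probe set. That Gsta4 call was lost without any 1 of 9 arrays. The mean oil difference called 3 higher and 8 lower of the 39, a share near the 24.3% of all probe sets, with Gstm1 at -1.30 ± 0.23 by H32189_s_at but 0.011 ± 0.18 by J02810mRNA_s_at. Nfe2l2, which encodes NRF2 itself, gave no call, with mean fat effects of 0.25 and 0.24 and mean oil differences of -0.29 and -0.25 in its 2 probe sets (SE 0.19 and 0.20). Some transferases of 1 family are close in sequence, so some of these probe sets may read more than 1 of them, which was not tested.

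The glutathione list (17 probe sets, 12 genes) and the list of thioredoxins, peroxiredoxins and related proteins (31 probe sets, 17 genes) each had 0 calls by limma in the mean fat effect, with 4 of 17 and 7 of 31 at an unadjusted p under 0.05. Among all probe sets 2.28% were called in that effect, and 1267 of 8740 had an unadjusted p under 0.05. With corn oil alone, Gpx3, the glutathione peroxidase of plasma, fell at 70% fat by 0.53 ± 0.10 by rc_AI172411_at (adjusted p = 0.0179), and its other probe set was at -0.16 ± 0.13. By limma, leaving out 1 array ended that Gpx3 call in 3 cases, with the highest adjusted p at 0.0806: pool 2 at 70% fat, and pools 1 and 2 at 5% fat, all fed corn oil. It also ended in 5 of 9 other settings, among them the index as a covariate (adjusted p = 0.205). In the mean oil difference, which called 24.3% of all probe sets, 3 of the 17 were higher and 2 lower with corn oil, the lower ones including glutathione synthetase Gss at -0.24 ± 0.06 by L38615_at. Its other probe set, L38615_g_at, averaged -0.012 and 0.033 with 70% and 5% corn oil, and 0.020 and -0.040 with 70% and 5% olive oil. With 1 value per gene the Gss call was lost. Of the 31, 1 was higher and 4 were lower, with the mitochondrial peroxiredoxin Prdx3 at -0.75 ± 0.12 (adjusted p = 0.000700) in 1 probe set and -0.012 ± 0.11 in the other. None of the oil calls in these lists was present with the index as a covariate.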

How the data were processed

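Each of 12 arrays held pooled liver RNA of 1 diet, 8 ug of it labelled with biotin, per the labels' protocols. The deposited table holds log2 values of 8799 probe sets, which the authors made with GCOS and RMA per the submitters' processing notes (versions not given). The base of the logarithm is not written in the table and was taken as 2. Within 1e-06, 100% of probe sets had a median of 0 over the 12 arrays, so values are differences. After 59 controls were left out, 8740 probe sets were tested with limma 3.58.1 (R 4.3.3): 4 diet means, 12 arrays, 8 residual degrees of freedom, eBayes without trend, two-sided, Benjamini-Hochberg adjusted within each of 7 contrasts. The index was the mean 3' minus 5' value of the actin and GAPDH controls. Code was tested on simulated data. The members and lists were chosen with earlier results of these data known. The rule for names took all members, listed probe sets past the threshold (at most 6 a list) and the 3 probe sets nearest to each called member. The text names all members, a part of the others and some further probe sets of the same genes. Alternatives were a second quantile normalization, array centring, robust moderation, array weights, the index as a covariate, pool numbers as a block, arrays of 2 groups alone, a 1.5-fold minimum, 1 value per gene and the omission of single arrays. For arrays, their number limits the precision.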

Additional observations from a re-analysis of the deposited data

How the results depend on the processing

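Counts of member probe sets called by limma stayed within 1.5 times of the reported count except as follows. With the index as a covariate, 0 were called in the oil comparisons at 70% fat, at 5% fat and on average, where 5, 7 and 11 had been. With 1 value per gene these were 3, 4 and 5 genes, against 328, 801 and 1035 of all 4736 genes. Array weights gave 11 at 5% fat and 1 in the mean fat effect. They gave 1 for 70% minus 5% fat with olive oil (a Gpx1 probe set). Over all 8740 probe sets, array weights called 2632, 249 and 138 in these comparisons, against 1704, 199 and 38 without weights. A second quantile normalization also gave 1 in the mean fat effect (184 over all probe sets). The arrays of 2 groups alone gave 2 in the oil comparison at 70% fat (334 over all probe sets). Leaving out each array in turn gave 2 to 8 in that comparison and 6 to 9 at 5% fat. On average it gave 6 to 13 (7 without pool 2 of 5% corn oil and 6 without pool 1 of 70% olive oil). In the mean fat effect it gave 0 to 1 (1 without pool 3 of 70% corn oil). Over all probe sets the oil comparison then called 311 to 1162 at 70% fat and 1115 to 2065 at 5% fat. The mean oil difference called 1728 to 2309 and the mean fat effect 116 to 233.

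Among differences past the threshold in either setting, signs turned with the index as a covariate at 70% fat for Gstm1 (0.10) and Uox (0.027). At 5% fat they turned for Gpx1 (0.11), Cat (-0.069), Prdx6 (0.39), Gstm1 (0.69) and Maob (0.038). In the mean oil difference they turned for Gsr (0.64), Cat (0.90), Nqo1 (0.076), Txnrd1 (-0.092), Adh5 (-0.16), Prdx6 (0.48), Gstm1 (0.40), Me1 (0.46), Maob (0.12) and Cyp2e1 (0.19). With 1 value per gene, where probe sets of opposite sign are averaged, signs turned for Txnrd1 by rc_AA891286_at at 5% fat (-0.57, where the gene value was called and the probe set was not) and on average (-0.46), for Gsta4 on average (-0.013) and for Idh1 with corn oil (-0.019). Other causes were not tested.

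Pool numbers did not pair the samples: correlations of deviations over 18 same-number pairs ran from -0.19 to 0.23, with 3 over 0.1, and 4 of 12 arrays matched their own number best. With the replicate block the oil counts were 5, 7 and 10, Nqo1 being the call not made. Over all probe sets they were 650, 1625 and 2053. Of 138 member results that were not called, 78 changed sign in at least 1 alternative. A filter on low values could not be applied to centred values, and signal over background cannot be judged from them.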
